A study of Mus musculus with 6 samples.

Results

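The Hox genes are homeobox transcription factors, arranged in 4 chromosomal clusters, that mark position along the body axis and along the limb. A list of 38 of them was looked up by gene symbol in the annotation of the arrays, and each gene was represented by its brightest transcript cluster, the set of probes that reports 1 transcribed locus, by the mean over the 6 arrays. Of the 38, 36 had a transcript cluster of their own among the 18997 genes measured. Hoxa3 shared its cluster with the non-coding transcript Hoxaas3, at log2 levels of 3.93 to 4.38, and Hoxd4 shared its cluster with Hoxd3, at 2.67 to 3.15, so neither value is given to either gene. Of the 36 genes, 34 had 1 cluster, Hoxb2 had 2 and Hoxd3 had 4.

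The RNA came from cultured clones of mesenchymal stem cells, the stromal cells of bone marrow that can form bone, fat and cartilage. They were taken from the hindlimb marrow of a 1-year-old mouse whose Dicer alleles were both floxed, and all 6 clones carry SV40 large T antigen, a viral protein used to immortalise cells. Clones 6 and 12, labelled Dicer+/+, are the Dicer-carrying group (n = 2), and clones 6.8 and 6.9 from clone 6 and clones 12.2 and 12.4 from clone 12, labelled Dicer-/-, are the Dicer-null group (n = 4). The null clones had been infected with Adeno-Cre-GFP, an adenovirus that carries Cre recombinase, sorted for its green fluorescence and cloned again. No Dicer-carrying clone on the arrays had gone through those steps, so they cannot be told apart from Dicer loss. All cultures were undifferentiated and untreated, and each array is 1 culture of 1 clone. One label of the array titled as clone 6.9 names clone 6.8 as its cell type. It is treated as clone 6.9 here, after its title. Where 4 values are given for the null clones, their order is 6.8, 6.9, then 12.2, 12.4. In RNA of whole cultures, fewer cells of a type and less RNA per cell cannot be told apart.

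Of 11 measured mesenchymal stromal markers, 7 lay above background on all 6 arrays, among them Pdgfra, Pdgfrb, Prrx1 and Cxcl12, while Thy1 and Lepr did so on none. Above background here means above the 95th percentile of 1009 odorant, vomeronasal and taste receptor genes on the same array, which lay at log2 levels of 3.33 to 3.71. It is an empirical floor and no detection call. All 7 endothelial markers stayed below it on every array, and so did 7 of 9 haematopoietic markers, including Ptprc, the pan-leukocyte antigen. The other two were Cd68, above it on 3 arrays, and Cd14, on all 6. Dicer1 itself changed by -0.10 ± 0.14 (SE) at an adjusted p of 0.885 in limma. Its cluster averages probes over the gene and does not measure the floxed part alone, so it checks no label. Clone 12.2 had the lowest log2 levels of Pdgfrb (8.08), Cxcl12 (7.63) and the limb homeobox genes Irx3 (5.22) and Dlx5 (2.96) on any of the 6 arrays. The stromal markers as a list did not set it apart. Their median level was 6.77 in clone 12.2, within the 5.74 to 7.02 of the 6 arrays. Their median change from clone 12 was -0.32.

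In each Hox cluster the genes lie in the order in which they act from head to tail, and genes with the same number in different clusters are paralogues. In the mouse limb, paralogues 9 and 10 pattern the segment nearest the body, paralogues 11 the middle segment and paralogues 13 the hand and foot. Cells taken from adult limbs commonly keep a part of this code. The clusters also hold genes of microRNAs, the short RNAs that Dicer cuts from their precursors, and members of the miR-196 and miR-10 families are reported to repress Hox messages.

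The sequences of those microRNAs are shown because they need Dicer and lie between the genes described here. The capitals mark the seed, bases 2 to 8 from the 5′ end, which pairs with targets. Sequences and positions are those of RefSeq on GRCm38.p6. The miR-196a sequence is encoded at chr11:96265187-96265208 on the plus strand, between Hoxb13 and Hoxb9, and again at chr15:102973365-102973386 on the plus strand, between Hoxc10 and Hoxc9. The miR-196b sequence lies at chr6:52230129-52230150 on the minus strand, between Hoxa9 and Hoxa10. The miR-10a sequence lies inside the Hoxb3 gene at chr11:96317186-96317208 on the plus strand, and miR-10b inside Hoxd3 and Hoxd4 at chr2:74726074-74726096 on the plus strand. The let-7a sequence, encoded here at chr13:48538239-48538260 on the minus strand, is added because the title of the study names let-7.
mmu-miR-196a-5p: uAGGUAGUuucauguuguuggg
mmu-miR-196b-5p: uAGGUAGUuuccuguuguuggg
mmu-miR-10a-5p: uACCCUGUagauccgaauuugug
mmu-miR-10b-5p: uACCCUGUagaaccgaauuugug
mmu-let-7a-5p: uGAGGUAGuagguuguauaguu
Both miR-196 forms share the seed AGGUAGU and differ by A12C, with miR-196a first and positions counted from the 5′ end. Both miR-10 forms share the seed ACCCUGU and differ by U12A, with miR-10a first. The 7 bases AGGUAGU also occur in let-7a, but they start at base 3 there and at base 2 in miR-196a. The array values give no level of any mature microRNA.

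The first question was which Hox genes these hindlimb clones express. Genes of cluster A were above background most often, and genes of clusters B and D least often. On all 6 arrays 14 of the 36 Hox genes were above background, beside 45.5% of all 18997 genes. They were 7 of 9 in cluster A on chromosome 6 (Hoxa2, Hoxa4, Hoxa5, Hoxa7, Hoxa9, Hoxa10 and Hoxa11), 3 of 10 in cluster B on chromosome 11 (Hoxb2, Hoxb3 and Hoxb8), 3 of 9 in cluster C on chromosome 15 (Hoxc9, Hoxc10 and Hoxc11), and 1 of 8, Hoxd3, in cluster D on chromosome 2. By position within the clusters they were 5 of 9 paralogues 1 to 4, 3 of 11 paralogues 5 to 8 and 6 of 16 paralogues 9 to 13. For Hoxb2 and Hoxd3 the count rests on the brightest transcript cluster. The other Hoxb2 cluster had a mean level of 2.74, and the other Hoxd3 clusters had 3.88, 2.74 and 2.26. With all transcript clusters of a gene averaged, 12 Hox genes were above background on all arrays.

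**Figure D1:**
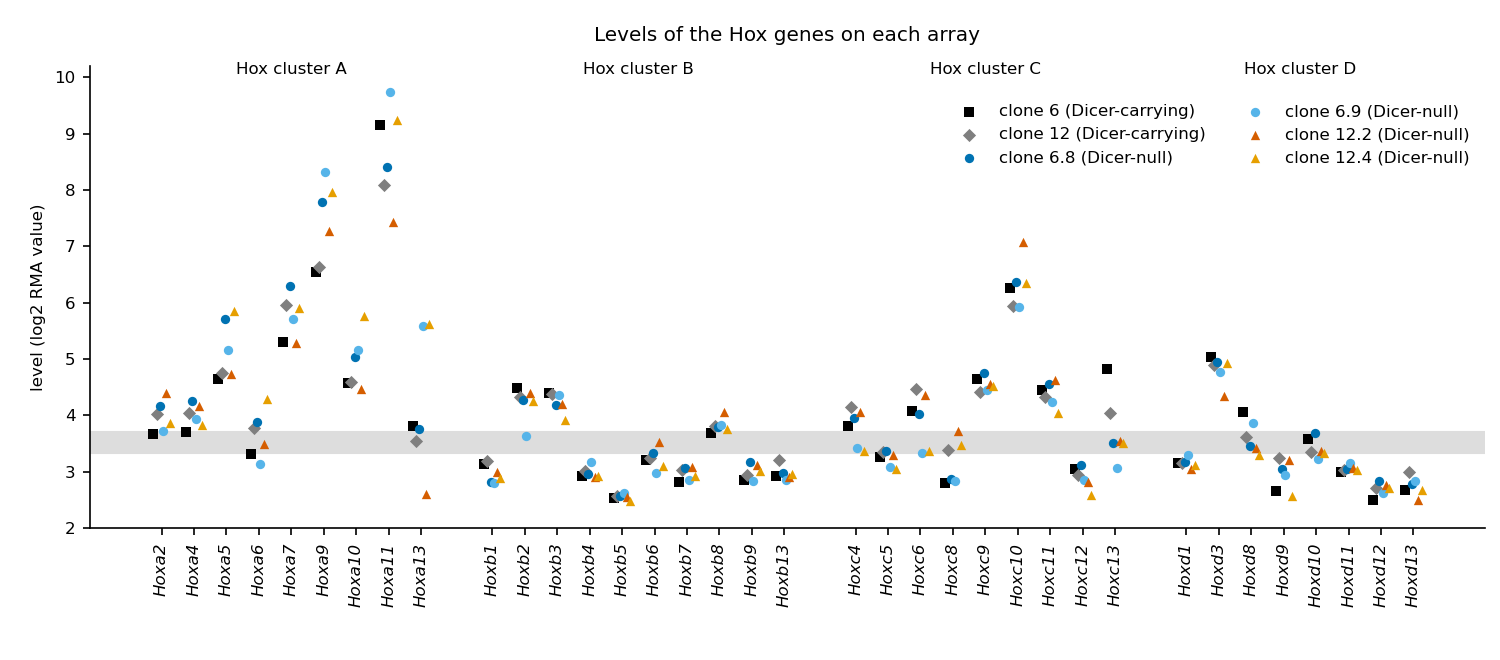
Level of each of the 36 Hox genes on each of the 6 arrays (y axis, log2 RMA value), ordered by cluster and paralogue number, with 1 point per array. The grey band spans the background limits of the arrays, 3.33 to 3.71, and Hoxa7, Hoxa9, Hoxa11 and Hoxc10 lie above it on every array while most genes of clusters B and D lie in or below it. Levels of different genes are not on a common scale.

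A further 8 genes were above background on some arrays: Hoxc4 and Hoxc6 on 5, Hoxa13 on 4, Hoxa6 and Hoxc13 on 3, and Hoxc8, Hoxd8 and Hoxd10 on 2. The remaining 14 were above it on none. These were Hoxb1, Hoxb4, Hoxb5, Hoxb6, Hoxb7, Hoxb9, Hoxb13, Hoxc5, Hoxc12, Hoxd1, Hoxd9, Hoxd11, Hoxd12 and Hoxd13, with log2 levels of 2.49 to 3.52. The posterior genes of cluster D, Hoxd11 to Hoxd13, were thus not told from the floor of these arrays, and neither was Hoxb13. With the 99th percentile of the receptor genes as the limit, at 4.12 to 4.50, 6 genes were above it on all arrays: Hoxa5, Hoxa7, Hoxa9, Hoxa10, Hoxa11 and Hoxc10. Probe sets differ in affinity and in the stretch of the gene they cover, so no level of 1 gene is ranked against another.

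The second question was how the Hox genes changed with Dicer loss. No Hox gene passed the test, and most measured changes were small beside the spread of the clones. Hoxa9 had the largest gain and Hoxc13 the largest loss that ran the same way in all 4 null clones. Changes are log2 levels of a null clone minus its own Dicer-carrying parent, given with the standard error of a limma fit that held the parental line as a block. At an adjusted p of 0.05 over all genes limma called 0 of 36 Hox genes, beside 112 of all 18997 genes (0.59%), 31 higher (0.163%) and 81 lower (0.426%). At an unadjusted p under 0.05 it had 3 Hox genes, Hoxa9, Hoxb1 and Hoxc13, beside 13.7% of all genes. That count was 0 without clone 6, 2 without clone 12, 6.8 or 12.4, 3 without clone 6.9 and 5 without clone 12.2, and it was 6 with averaged siblings and 1 with dim genes left out. The median change was 0.016 over the 36 Hox genes and -0.023 over all genes. The mean change lay within 0.5 log2 units of 0 for 30 of the 36, and the 95% interval lay within 1 log2 unit of 0 for 27.

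Hoxa9, a posterior gene of the body axis and of the segment of the limb nearest the body, had log2 levels of 6.54 and 6.63 in the Dicer-carrying clones 6 and 12. In the null clones they were 7.78 (6.8), 8.31 (6.9), 7.28 (12.2) and 7.97 (12.4). All 4 null clones were above both Dicer-carrying clones, and the groups did not overlap. The means were 6.59 ± 0.06 (SD, n = 2) and 7.83 ± 0.43 (SD, n = 4), and the change was 1.25 ± 0.28 (SE), or 2.38-fold, with a 95% interval of 0.51 to 1.99. The unadjusted p was 0.00788 and the adjusted p 0.164 in limma, so Hoxa9 missed the threshold. The lowest adjusted p of any Hox gene under any processing tried was also that of Hoxa9, at 0.100 in limma with sibling null clones averaged.

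Hoxc13, known for its role in hair and nail, ran the other way. Clones 6 and 12 had log2 levels of 4.82 and 4.04, against 3.51, 3.06, 3.54 and 3.51 in the 4 null clones. Both Dicer-carrying clones and, of the null clones, clone 12.4 were above background, so the null levels lay near the floor. The means were 4.43 ± 0.55 (SD, n = 2) and 3.41 ± 0.23 (SD, n = 4), and the groups did not overlap. The measured change was -1.02 ± 0.28 (SE), with a 95% interval of -1.75 to -0.30, an unadjusted p of 0.0156, and limma gave an adjusted p of 0.221. Clones 6.8, 6.9 and 12.2 lay below the limits of their arrays. Set against those limits, they were at least 2.30-fold, 2.41-fold and 1.28-fold lower than their parents. The size rested on the parental array used: the change of Hoxc13 was -0.51 without clone 6 and -1.54 without clone 12, with unadjusted p of 0.110 and 0.00442 in limma.

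The groups also did not overlap for Hoxb3 and Hoxb1, which makes 4 of 36 Hox genes beside 23.4% of all genes. Hoxb3, a hindbrain and neck gene, had levels of 4.39 and 4.37 in clones 6 and 12 and of 4.18, 4.36, 4.21 and 3.92 in the 4 null clones. Its change was -0.21 ± 0.14 (SE) at an adjusted p of 0.630 in limma. Hoxb1, a hindbrain gene, was above background on no array, at 3.14 and 3.18 against 2.80 to 2.99, and its change of -0.29 ± 0.09 (SE) had an adjusted p of 0.291 in limma. Higher than their own parent in all 4 null clones were 3 Hox genes, Hoxa9, Hoxc8 and Hoxd12, beside 13.1% of all genes. Lower in all 4 were 5, Hoxb1, Hoxb3, Hoxc6, Hoxc13 and Hoxd8, beside 18.9%. Both shares, 3 and 5 of 36, are below those of all genes.

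**Figure D2:**
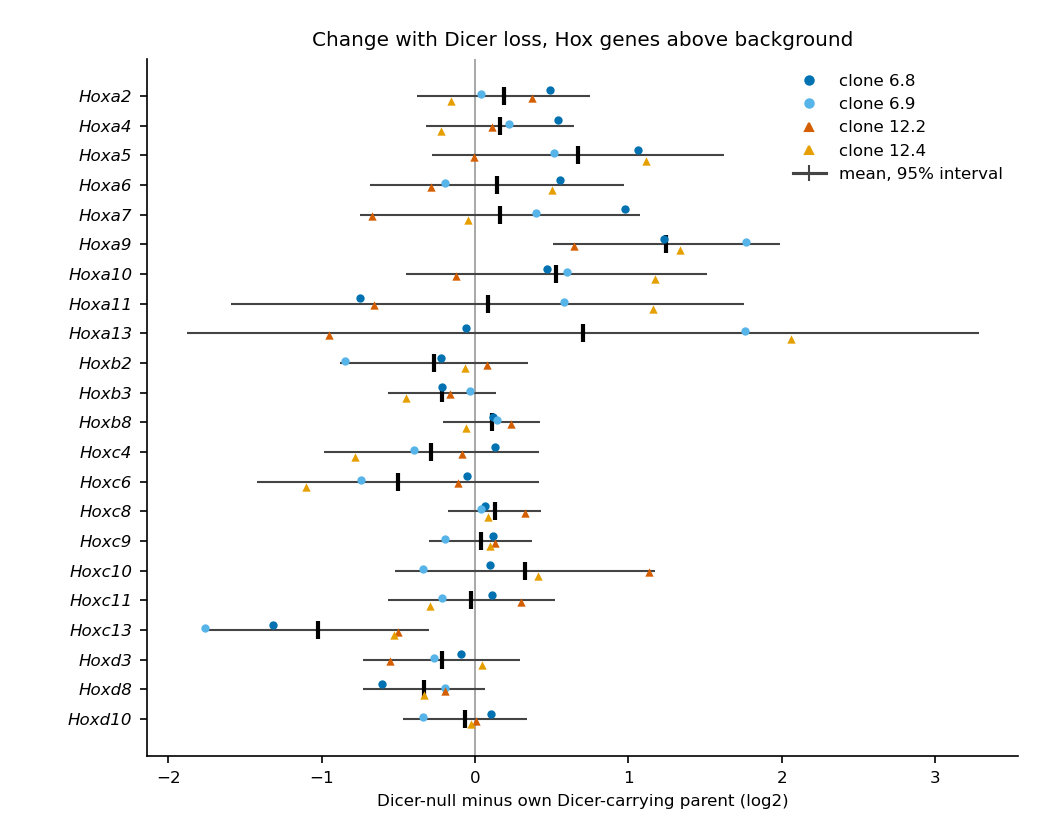
Change of the 22 Hox genes that were above background on at least 1 array (x axis, log2 level of a null clone minus its own Dicer-carrying parent). Points are the 4 null clones, the black tick is the mean change of the limma fit and the bar its 95% interval. Only the intervals of Hoxa9 (0.51 to 1.99) and Hoxc13 (-1.75 to -0.30) exclude 0, before any adjustment, and those of Hoxa11 and Hoxa13 are the widest.

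In 3 of the 4 null clones most measured genes of cluster A, or 5 of 9 and more, lay above the parent by over 0.5 log2 units. Of its 9 genes, those more than 0.5 log2 units above the parent numbered 5 in clone 6.8, 5 in clone 6.9, 1 in clone 12.2 and 6 in clone 12.4. The matching shares of all genes were 9.4%, 11.8%, 13.1% and 12.7%. All genes include many at the floor. Genes above background on all 6 arrays had a median absolute mean change of 0.32, beside 0.15 over all genes. The shares of all genes are thus a low yardstick for cluster A, where 7 of 9 genes were above background on all arrays. The median change of the 9 genes was 0.54 in clone 6.8, 0.52 in clone 6.9, -0.12 in clone 12.2 and 1.12 in clone 12.4. In clusters B and D no gene was above its parent by that much in any null clone, and in cluster C 1 was, Hoxc10 in clone 12.2. However, 7 of 10 genes of cluster B and 5 of 8 of cluster D were above background on no array. Below the parent by more than 0.5 log2 units were 1, 0, 3 and 0 genes of cluster A in the 4 null clones, beside 12.2%, 15.2%, 13.3% and 12.2% of all genes. In the same clones there were 0, 1, 0 and 0 of 10 genes in cluster B, 1, 2, 1 and 3 of 9 in cluster C, and 1, 0, 2 and 1 of 8 in cluster D. The 2 clones of a line share 1 parental array, so a low or high value there moves both.

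The pattern differed among the genes of cluster A as well as among the clones. Hoxa5, which patterns the neck and thorax and the lung, had levels of 4.64 and 4.74 in clones 6 and 12. They were 5.71, 5.16, 4.74 and 5.86 in the 4 null clones, so every null clone except 12.2 was above both Dicer-carrying clones. The change was 0.67 ± 0.36 (SE), with a 95% interval of -0.28 to 1.62 and an adjusted p of 0.545 in limma. Hoxa10, a gene of the proximal limb and the lower trunk, had levels of 4.57 and 4.59 in clones 6 and 12 and of 5.03, 5.17, 4.46 and 5.76 in the same null clones. Clone 12.2 was again the lowest null clone and 12.4 the highest, with a change of 0.53 ± 0.38 (SE) at an adjusted p of 0.680 in limma. Without clone 12.2 the changes were 0.93 for Hoxa5, 0.81 for Hoxa10 and 1.43 for Hoxa9, with unadjusted p of 0.0145, 0.0153 and 0.00248 in limma. Without clone 12.4 they were 0.45, 0.25 and 1.14, with unadjusted p of 0.209, 0.277 and 0.0237 in limma. No Hox gene passed after adjustment in either fit.

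Hoxa7, a thoracic gene and a reported target of miR-196, had levels of 5.31 and 5.96 in clones 6 and 12. The null clones of line 6 had 6.29 and 5.71, both above clone 6, and those of line 12 had 5.29 and 5.91, both below clone 12. Its mean change was 0.16 ± 0.35 (SE) at an adjusted p of 0.940 in limma. Hoxa6 had changes of 0.55, -0.19, -0.29 and 0.51 in the 4 null clones, around a parental level near the floor. The anterior genes Hoxa2, needed for the second branchial arch, and Hoxa4 changed by 0.19 ± 0.22 and 0.16 ± 0.18 (SE), with adjusted p of 0.848 and 0.841 in limma.

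**Figure D3:**
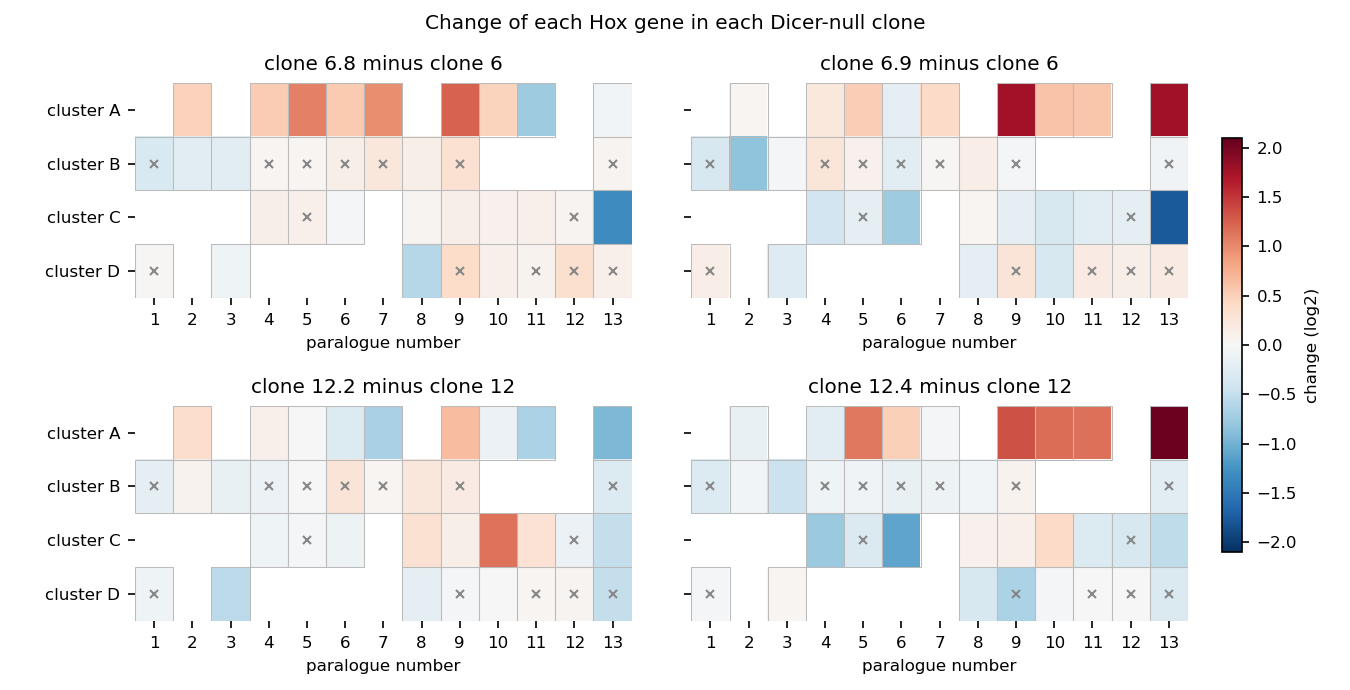
Change of each Hox gene in each null clone against its own Dicer-carrying parent (colour, log2), with clusters A to D in rows and paralogue numbers in columns. A cross marks a gene above background on no array, and a white field a gene that is not measured or does not exist. In cluster A, 5, 5 and 6 of 9 genes are more than 0.5 higher in clones 6.8, 6.9 and 12.4, and 1 of 9 in clone 12.2.

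The posterior genes Hoxa11 and Hoxa13 differed more between null clones of the same line than between the groups. Hoxa11, which patterns the middle segment of the limb, had levels of 9.16 and 8.08 in clones 6 and 12. They were 8.41, 9.74, 7.42 and 9.24 in the 4 null clones. In each line 1 null clone was below the parent and 1 above it, and the change was 0.08 ± 0.64 (SE), with a 95% interval of -1.59 to 1.75 and an adjusted p of 0.990 in limma. The null clones spanned 2.31 log2 units, a range that 2.75% of all genes exceeded. That share is again a low yardstick, since all genes include many at the floor.

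Hoxa13, which patterns the hand and foot, had levels of 3.82 and 3.55 in clones 6 and 12. In the 4 null clones they were 3.76, 5.58, 2.60 and 5.61. Clones 6.9 and 12.4 were thus well above background, and clone 6.8 lay beside its parent. Clone 12.2 was below background, and so was its parent, clone 12, whose limit was 3.71. The lower level in clone 12.2 is thus a difference at the floor. Set against the limit of clone 12, clone 12.4 was at least 3.75-fold higher. The null clones spanned 3.01 log2 units, with the lower end at the floor. That range was exceeded by 1.19% of all genes, many of which are at the floor themselves. The measured change of Hoxa13 was 0.70 ± 0.99 (SE) at an adjusted p of 0.886 in limma. Leaving out 1 null clone moved the change of Hoxa13 to 1.07 without 6.8, 0.29 without 6.9, 1.37 without 12.2 and 0.079 without 12.4. The clones with the higher Hoxa13 were also those with the higher Hoxa11 in each line. Hoxa11os, the antisense transcript of the Hoxa11 locus, had levels of 6.64 and 6.83 in clones 6 and 12 and of 6.04, 6.71, 5.76 and 6.12 in the 4 null clones. Its change was -0.58 ± 0.27 (SE) at an adjusted p of 0.460 in limma.

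Between sibling null clones, 2 Hox genes differed by more than 1 log2 unit in line 6, Hoxa11 and Hoxa13, beside 6.06% of all genes. In line 12 there were 4, Hoxa5, Hoxa10, Hoxa11 and Hoxa13, beside 8.06%. Between the Dicer-carrying clones 1 Hox gene, Hoxa11, differed by as much, beside 2.71% of all genes. These counts, each out of 36, are near the shares of all genes. All of the genes named lie in cluster A, but 7 of 10 genes of cluster B and 5 of 8 of cluster D were above background on no array. Against their own parent, 3 Hox genes moved by more than 1 log2 unit in clone 6.8 (Hoxa5, Hoxa9 and Hoxc13), beside 7.18% of all genes, and 3 in clone 6.9 (Hoxa9, Hoxa13 and Hoxc13), beside 11.6%. There was 1 in clone 12.2 (Hoxc10), beside 10.3%, and 6 in clone 12.4 (Hoxa5, Hoxa9, Hoxa10, Hoxa11, Hoxa13 and Hoxc6), beside 8.66%. The median of expressed genes on chromosome 6, which carries cluster A, was 0.02, 0.08, -0.08 and -0.22 in the 4 null clones, relative to all expressed genes. After centring each array on the chromosome the change of Hoxa9 was 1.22.

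The promoters of Hoxa9, which was higher in all 4 null clones, and of Hoxa13, which differed most between sibling clones, are shown to set their base composition side by side. Each window runs from 250 bases before to 50 after the start in RefSeq on GRCm38.p6, both on the minus strand, at chr6:52227321-52227620 for Hoxa9 and chr6:52260831-52261130 for Hoxa13. The capitals mark GC boxes, GGGCGG on either strand, a motif bound by Sp1 and related factors.
Hoxa9: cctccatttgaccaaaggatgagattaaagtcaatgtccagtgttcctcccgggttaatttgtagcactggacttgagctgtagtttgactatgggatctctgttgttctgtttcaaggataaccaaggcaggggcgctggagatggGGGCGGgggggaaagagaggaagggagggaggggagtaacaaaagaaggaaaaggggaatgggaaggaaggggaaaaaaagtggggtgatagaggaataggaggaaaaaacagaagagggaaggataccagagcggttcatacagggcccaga
Hoxa13: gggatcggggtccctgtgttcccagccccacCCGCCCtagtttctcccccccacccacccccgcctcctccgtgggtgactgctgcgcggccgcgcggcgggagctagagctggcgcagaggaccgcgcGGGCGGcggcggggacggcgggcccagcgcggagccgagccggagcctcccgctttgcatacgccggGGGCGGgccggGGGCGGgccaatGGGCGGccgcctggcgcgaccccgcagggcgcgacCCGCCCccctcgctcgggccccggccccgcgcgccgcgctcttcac
The Hoxa9 window held 4 CpG and 1 GC box at 49.7% G and C, and the Hoxa13 window 45 CpG and 6 GC boxes at 81.0%. Of 32851 windows, 68.6% held as many CpG as Hoxa9 or more and 1.93% as many as Hoxa13 or more, around a median of 7, and 35.7% held at least 1 GC box. These matches describe the letters and show no binding.

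Genes of cluster B that were above background moved little. Hoxb2, a hindbrain gene, changed by -0.22, -0.85, 0.08 and -0.06 in the 4 null clones, with a mean of -0.26 ± 0.24 (SE) at an adjusted p of 0.773 in limma. Hoxb8, a thoracic gene and a reported miR-196 target, had levels of 3.68 and 3.82 in clones 6 and 12 and of 3.80, 3.82, 4.05 and 3.75 in the null clones. Its change of 0.11 ± 0.12 (SE) had a 95% interval of -0.21 to 0.43, which leaves out a measured gain of 0.5. Hoxb8 was near the floor, above the 99th percentile of the receptor genes on no array, so the interval bounds the measured change only.

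In cluster C the genes of the lower trunk and hindlimb, Hoxc9, Hoxc10 and Hoxc11, were above background on all arrays. Hoxc10, a hindlimb gene, had levels of 6.27 and 5.94 in clones 6 and 12 and of 6.36, 5.93, 7.08 and 6.35 in the 4 null clones. Clone 12.2, the null clone with the lowest Hoxa11 and Hoxa13, had the highest Hoxc10, and the mean change was 0.33 ± 0.33 (SE) with an adjusted p of 0.806 in limma. Hoxc9 and Hoxc11 changed by 0.04 ± 0.13 and -0.02 ± 0.21 (SE), with adjusted p of 0.967 and 0.991 in limma. Hoxc4 and Hoxc6, genes of the neck and thorax, had changes of 0.13, -0.40, -0.08 and -0.78, and of -0.05, -0.74, -0.11 and -1.10, in the 4 null clones. Both were thus lowest in clones 6.9 and 12.4, the clones in which Hoxa13 was high. There Hoxc4 had levels of 3.42 and 3.36 and Hoxc6 of 3.34 and 3.37, at the floor beside limits of 3.55 and 3.33. The other measured genes of cluster C were also lower in clones 6.9 and 12.4 than in their siblings. The mean changes of Hoxc4 and Hoxc6 were -0.28 ± 0.27 and -0.50 ± 0.35 (SE), with adjusted p of 0.794 and 0.677 in limma.

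In cluster D Hoxd3, a gene of the neck vertebrae, changed by -0.09, -0.27, -0.55 and 0.05 in the 4 null clones. The second brightest Hoxd3 transcript cluster ran the other way in clone 12.2, at 4.17 against 3.91 in clone 12. With its transcript clusters averaged the mean change of Hoxd3 was -0.040. Hoxd8 was lower than the parent in every null clone, by -0.60, -0.20, -0.20 and -0.33, at levels near the floor. The mean changes were -0.22 ± 0.20 for Hoxd3, -0.33 ± 0.15 for Hoxd8 and -0.06 ± 0.15 (SE) for the hindlimb gene Hoxd10, with adjusted p of 0.781, 0.452 and 0.950 in limma. The 14 genes above background on no array had mean changes of -0.29 to 0.13. For a gene at the floor in both groups, such a measured difference does not tell whether its message changed. This holds for Hoxb1, which the counts above include.

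Some reported Hox targets of miR-196 and miR-10 were taken as short lists, which need not hold every reported target. No list was made for let-7a. Of the 4 listed targets of miR-196, Hoxa7, Hoxb8, Hoxc8 and Hoxd8, limma called 0 and the median change was 0.12. Hoxc8 and Hoxd8 were above background on only 2 arrays each. The changes of Hoxc8 were 0.06, 0.04, 0.33 and 0.09 in the 4 null clones, with a mean of 0.13 ± 0.12 (SE) at an adjusted p of 0.775 in limma. Of the 3 listed targets of miR-10, 2 were measured, Hoxb3 and Hoxd10, and limma called neither. None of these 6 genes had an unadjusted p under 0.05. Of 16 listed non-coding genes of the clusters 3 had a cluster of their own, and Hoxaas3, which lies in cluster A, changed by 0.05, -0.84, -2.31 and 0.91 in the 4 null clones.

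Differences between line 12 and line 6 were read from the same fit. Limma called 0 of 36 Hox genes and 0 of all genes (0%), and at an unadjusted p under 0.05 it had 1 Hox gene, Hoxc8, beside 5.26% of all genes. Hoxc8, a thoracic gene, had levels of 2.80, 2.86 and 2.84 in clones 6, 6.8 and 6.9, and of 3.39, 3.71 and 3.48 in clones 12, 12.2 and 12.4. All 3 clones of line 12 were above all 3 of line 6, by 0.69 ± 0.11 (SE), with an unadjusted p of 0.0017, and limma gave an adjusted p of 0.941. Hoxc8 was above background in 2 of the 6 clones, both null clones of line 12.

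Whether the lines responded differently to Dicer loss was tested as the interaction of line and Dicer status, with 1 Dicer-carrying array per line. Limma called 0 Hox genes and 0 of all genes (0%), and at an unadjusted p under 0.05 it had 1 Hox gene, Hoxc13, beside 3% of all genes. Hoxc13 was lower by 1.31 and 1.76 in the line 6 clones and by 0.50 and 0.53 in the line 12 clones, a difference of 1.02 for which limma gave an unadjusted p of 0.0466 and an adjusted p of 1.0. The parental levels of Hoxc13 were 4.82 and 4.04 while the null levels lay between 3.06 and 3.54, near the floor, so that contrast lies largely in the parental arrays. With 2 residual degrees of freedom, a count of 0 does not show that the lines respond alike.

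Genes that set the identity of the limb were the next list. Tbx4, the hindlimb T-box gene, had log2 levels of 3.05 to 3.24 and Tbx5, its forelimb counterpart, 2.48 to 2.93. Neither was above background on any array, and neither was Isl1, an early hindlimb gene. Pitx1, which sets hindlimb identity, was above background on all 6, at 4.27 and 4.67 in clones 6 and 12 and at 4.81, 4.15, 5.13 and 5.69 in the 4 null clones. Its change of 0.47 ± 0.28 (SE) had an adjusted p of 0.600 in limma. Tbx15 and Tbx18, T-box genes of limb and trunk mesenchyme, changed by 0.51 ± 0.25 and -0.09 ± 0.50 (SE). Of 6 measured members limma called 0.

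The TALE homeodomain proteins, the Meis, Pbx and Pknox families, bind DNA together with Hox proteins, and Meis1 and Meis2 mark the proximal limb. Of 8 measured members limma called 0, and 3 had an unadjusted p under 0.05, Pbx2, Pknox2 and Pknox1, the last chosen after its values were seen. The shares of all genes were 0.59% and 13.7%. Pbx3 had levels of 6.03 and 5.10 in clones 6 and 12 and of 6.97, 7.83, 6.02 and 8.19 in the 4 null clones. Each null clone was above its own parent, by 0.92 to 3.09, but clone 12.2 stayed below clone 6, and the change was 1.68 ± 0.68 (SE) at an adjusted p of 0.384 in limma. Pbx2 and Pknox2 changed by 1.04 ± 0.36 and 1.0 ± 0.32 (SE), at adjusted p of 0.320 and 0.277 in limma. Clone 6 was below background for Pknox2. Meis1 changed by 0.38, 0.94, 0.43 and 1.62 in the 4 null clones, and Meis2 by 0.26, -0.95, -0.71 and -0.80. Their means were 0.84 ± 0.39 and -0.55 ± 0.36 (SE), and that of Pknox1 was -0.79 ± 0.21. The median change of the 8 was 0.35, beside -0.023 over all genes.

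**Figure D4:**
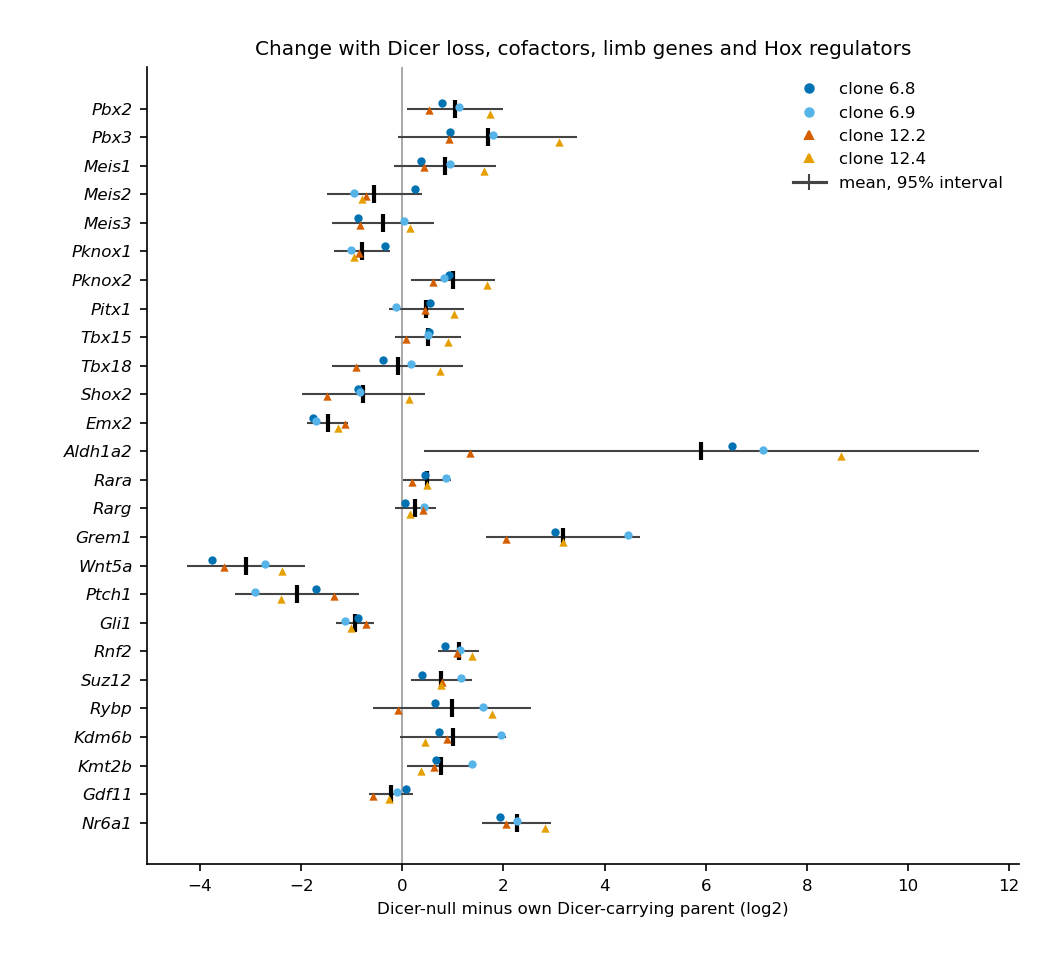
Change of 26 measured cofactors, limb genes and regulators of Hox genes (x axis, log2 level of a null clone minus its own Dicer-carrying parent). Points are the 4 null clones, the black tick is the mean change of the limma fit and the bar its 95% interval. Emx2, at -1.47, is the 1 gene shown that passed the adjusted threshold, and Aldh1a2 spans 1.33 in clone 12.2 to 8.67 in clone 12.4. The parental levels of Aldh1a2 and Grem1 and the null levels of Gli1 were below background. So were clone 12 for Nr6a1, clone 6 for Pknox2, clones 6.8 and 6.9 for Emx2, clones 6.8 and 12.2 for Wnt5a and clone 6.9 for Meis2. The sizes drawn for these genes are measured differences and no true folds.

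Among 25 measured transcription factors of limb mesenchyme, limma called 0 higher and 1 lower. That was Emx2, a homeobox gene of the shoulder blade, brain and urogenital tract, which fell from 4.80 and 4.90 in clones 6 and 12 to 3.03, 3.09, 3.77 and 3.62 in the 4 null clones, the first 2 of them below background. The change of Emx2 was -1.47 ± 0.16 (SE) with an adjusted p of 0.049 in limma. The call is marginal: leaving out any 1 of the 6 clones raised that p to between 0.0923 and 0.250 in limma, and 7 of the other settings tried gave 0.0514 to 0.119. Shox2, a gene of the proximal limb, had levels of 7.02 and 6.54 in clones 6 and 12 and of 6.14, 6.18, 5.05 and 6.67 in the null clones, a change of -0.77 ± 0.47 (SE). Hand2, a gene of the posterior limb bud, was above background on no array.

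Of 14 measured limb signalling genes limma called 0, beside 0.59% of all genes, and 7 had an unadjusted p under 0.05, beside 13.7%. Aldh1a2, the enzyme that makes retinoic acid, a known inducer of Hox genes, had levels of 2.71 and 2.88 in clones 6 and 12. They were 9.24, 9.84, 4.21 and 11.6 in the 4 null clones, so all null clones were higher and clone 12.2 least so. Both Dicer-carrying levels were below background, so the null mean was at least 34.5-fold higher, set against the background limits of those arrays, at an adjusted p of 0.329 in limma. Grem1, a secreted BMP antagonist of the limb bud, had levels of 3.12 and 3.38 in clones 6 and 12, both below background, and of 6.14, 7.59, 5.42 and 6.55 in the 4 null clones. It was at least 7.09-fold higher, at an adjusted p of 0.114 in limma. Wnt5a, a ligand needed for limb outgrowth, changed by -3.76, -2.71, -3.53 and -2.38. Clones 6.8 and 12.2 were below background there. The mean change of Wnt5a was -3.10 ± 0.45 (SE), with an adjusted p of 0.0781 in limma that was 0.0457 without the parental block, 0.0368 with the dimmest genes left out and 0.0248 with trend and robust moderation.

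Polycomb proteins keep Hox genes silent, and Trithorax proteins and H3K27 demethylases oppose them. All 16 measured Polycomb genes were above background on all arrays, limma called 0, and 5 had an unadjusted p under 0.05, beside 13.7% of all genes. Rnf2, the ubiquitin ligase of the complex, had levels of 7.17 and 6.52 in clones 6 and 12 and of 8.01, 8.31, 7.61 and 7.90 in the 4 null clones. Every null clone was above both Dicer-carrying clones, by a change of 1.11 ± 0.16 (SE) at an adjusted p of 0.0753 in limma. Its partner Rybp and the methyltransferase subunit Suz12 changed by 0.98 ± 0.60 and 0.77 ± 0.23 (SE), at adjusted p of 0.610 and 0.260 in limma. The median over the 16 was 0.25. Of 7 measured Trithorax and demethylase genes limma called 0, and 1 had an unadjusted p under 0.05, close to the 13.7% of all genes. The demethylases Kdm6b and Kdm6a changed by 1.0 ± 0.40 and 0.63 ± 0.44 (SE), and the methyltransferase Kmt2b by 0.76 ± 0.26, with adjusted p of 0.387, 0.677 and 0.311 in limma.

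Nr6a1, the nuclear receptor in the title of the study, is known in mouse embryos to regulate Hox genes of the trunk. Clones 6 and 12 had levels of 3.58 and 3.30, against 5.50, 5.85, 5.34 and 6.11 in the 4 null clones, and its groups did not overlap. The measured change was 2.26 ± 0.26 (SE). Clone 12 was below its background limit of 3.71, and clone 6 was just above its limit of 3.49. Set against the limit of clone 12, clones 12.2 and 12.4 were at least 3.11-fold and 5.30-fold higher. Nr6a1 just missed the threshold, at an adjusted p of 0.0548 in limma, but had 0.0236 without the parental block and passed in 4 further settings. Of the 8 measured axial regulators of Hox genes limma called 0. Gdf11, the signal for the trunk-to-tail transition, and Cdx2, a caudal homeobox gene, changed by -0.22 ± 0.16 and -0.16 ± 0.15 (SE), with adjusted p of 0.699 and 0.788 in limma.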

How the data were processed

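RNA from 6 clones was hybridised to exon arrays by a whole-transcript sense labelling method, per the labels' protocols. The deposited values are log2 levels of 44343 transcript clusters. Partek 6.5 and RMA are named in the submitters' processing notes, and RMA corrects background, equalises array distributions and summarises probes. Their genome build was not stated in the sources used. Array medians were 3.01 to 3.21, and RMA hides any change in total RNA per cell. No scanner file or detection call entered. The number of arrays limits the precision.

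Gene names of 22781 clusters with 1 gene were updated by Entrez identifier to GRCm38.p6, which 22485 matched. Clusters of several genes (2085) or none listed (19477) were left unnamed. Testing used limma 3.58.1 (R 4.3.3), with Dicer loss as the term and the parental line, taken from the series design text and clone numbers, as a fixed block (3 residual degrees of freedom), and Benjamini-Hochberg adjustment over 18997 genes. The fit was run on simulated arrays with independent noise and planted changes. Those arrays held no shared parent and no divergence of sibling clones, so the run does not show how the fit handles them. No source speaks of repeat cultures of a clone. The p-values therefore reflect only differences among clones, and sibling null clones share a parent. The correlation of arrays of a line was -0.13. Alternatives were no block, a random block, averaged siblings, averaged clusters, dim genes (mean under 4) left out, further quantile normalization, centring by array or chromosome, trend and robust moderation, and each clone left out.

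The members and lists were chosen with earlier results of these data known. Hox genes above background on at least 1 array are named with their values. From each further list, up to 4 genes past the threshold were named, otherwise the 3 with the largest change above background on at least 1 array, with Tbx4, Tbx5, Pitx1, Meis1, Meis2, Shox2 and Hand2 always named.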

Additional observations from a re-analysis of the deposited data

Results flagged for a closer look

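Over 51 genes examined, 2 results stood out, and chance alone sets a sample apart in about 1 in 20 groups. Hoxa7 was higher than the parent in both null clones of line 6 and lower in both of line 12. Its change was lower in line 12 by -1.05 log2 units (line 12 minus line 6), from means of 0.69 in line 6 and -0.36 in line 12. The limma interaction test gave an unadjusted p of 0.152 and an adjusted p of 1.0, so this difference did not pass.

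Hoxc13 had a log2 level of 3.06 in clone 6.9, apart from 3.51, 3.54 and 3.51 in the other null clones by Dixon's test at the 95% level. All but clone 12.4 of these lay below the background limit of their array.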

How the results depend on the processing

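No Hox gene passed in limma for Dicer loss, the line difference or the interaction under any alternative run; the interaction could not be fitted without a parental array or with averaged siblings. Over all genes Dicer loss gave 112 calls in limma, but 220 with no replicate block, 15 with averaged siblings, 233 with trend and robust moderation and 0 to 17 with a clone left out, 0 without either parental clone. The median change of the Hox genes was 0.016, but 0.12 with dim genes left out, which keeps fewer Hox genes, 0.10 with arrays centred and -0.058 with chromosome centring, and -0.020 to 0.059 with a clone left out (below 0 without clone 6 or 6.8). Hox genes above background numbered 14, but 12 with averaged clusters, 6 at the 99th percentile and 22 on at least 1 array. The sign turned for Hoxc11 (0.061 with quantile normalization and 0.058 with arrays centred), Hoxd10 (0.025 and 0.018 in the same order) and Tbx18 (0.42 with chromosome centring). With a clone left out the change ranged from -0.055 to 0.38 for Hoxa4, -0.020 to 0.32 for Hoxa6, -0.36 to 0.69 for Hoxa7, -0.33 to 0.45 for Hoxa11, -0.53 to 0.0069 for Hoxb2, -0.038 to 0.12 for Hoxc9, -0.12 to 0.77 for Hoxc10, -0.15 to 0.10 for Hoxc11, -0.15 to 0.040 for Hoxd10, -0.45 to 0.26 for Tbx18, -0.34 to 0.0068 for Cdx2 and -1.22 to 0.16 for Hoxaas3. The cause was not tested. Of the changes of 46 named genes under the other settings, 381 kept direction and side of the threshold, 5 turned sign, 8 newly passed and 7, all of Emx2, no longer did. With a clone left out 250 kept both, 20 turned sign and 6, again of Emx2, no longer passed.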

Other observations

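Chosen after their values were seen, some genes of limb mesenchyme and hedgehog signalling had mean changes of over 1.5 log2 units, among them Twist2, Ptch1, Dlx5 and Dlx6, and limma called none of these 4. Twist2, a transcription factor of dermis and bone precursors, had log2 levels of 4.00 and 4.13 in clones 6 and 12 and of 5.33, 6.94, 6.63 and 6.48 in null clones 6.8, 6.9 and then 12.2, 12.4. Its change was 2.28 ± 0.47 (SE) at an adjusted p of 0.135 in limma. Ptch1 and Gli1, which report hedgehog signalling, were lower than the parent in all 4 null clones. Ptch1 changed by -2.09 ± 0.47 (SE) at an adjusted p of 0.161 in limma. Gli1 was below background in all 4 and at least 1.39-fold lower, at an adjusted p of 0.0874 in limma. The linked homeobox genes Dlx5 and Dlx6 changed by -3.46 ± 1.28 and -1.61 ± 0.31 (SE), at adjusted p of 0.348 and 0.123 in limma. Dlx5 was below background in clone 12.2, at least 50.3-fold lower than in its parent, and Irx3 had a change of -4.40 there against -0.23 to -0.83 in the other null clones.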
